A study of Mus musculus with 4 samples.

Results

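In serum-starved mouse embryonic fibroblasts labelled KO, 240 peaks recovered with antibodies to pRb were at least 1000 bp wide and lay on chromosomes 1 to 19, outside a block on chromosome 4 and a block on chromosome 8. They were chosen from the deposited list of the arrested cells by width and position only, without regard to score. They make up 0.0366% of the 656315 arrested peaks on the same autosomal sequence, and the whole arrested list held 699290. Of all 364 arrested peaks of at least 1000 bp, the others lay on X (69), in the chromosome 4 block (38, from 145039544 to 146960301) and in the chromosome 8 block (17, from 19680321 to 22150854). The 240 covered 331 kb, which was 0.220% of the autosomal sequence under arrested peaks.

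The cells came from C57BL/6 embryos at stage E13.5 and were used at passage 4. The arrested cells were kept in 0.1% fetal bovine serum for 72 hours, and the proliferating cells, used here for comparison, were growing asynchronously in 10% serum. Chromatin was fixed with ethylene glycol bissuccinimidylsuccinate and formaldehyde, and each growth state gave 1 immunoprecipitated library and 1 peak list. Several antibodies to pRb are listed for each library, and all samples carry the label KO without the name of the gene that was removed. The labels do not say whether the cells still made pRb, so the intervals are described as calls and not as bound sites.

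The retinoblastoma protein pRb holds E2F transcription factors in an inactive state until it is phosphorylated on entry into the cell cycle, and it recruits chromatin regulators that compact and silence DNA. The series title names the silencing of endogenous retroelements, which are present in mammalian genomes in many similar copies. Short reads from such copies can match more than 1 place, and the labels do not say how the authors treated them. No mm9 sequence, gene or repeat annotation was used, so each peak is given by its mm9 position, and whether it lies in a gene or a repeat was not tested.

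Wide arrested peaks were grouped by distance to each other, and isolated and clustered ones differed in width and score. With a limit of 100 kb between edges, 134 of the 240 (55.8%) had no other wide peak nearby and are called isolated here. Another 92 (38.3%) formed 9 clusters of 3 or more, and 14 formed 7 pairs. The isolated peaks were mostly little wider than 1000 bp and had a median score of 116. The clustered ones were wider, with a median of 1404 bp against 1100 bp, and their median score was 48.8. The 14 paired peaks lay between them, with a median width of 1140 bp and a median score of 80.2. The score was deposited by the authors with each peak, on a scale that no label states. It starts at 20 in the list and ends at 3100, a value that 3 peaks share exactly. Whether the score is capped there, and which program wrote it, is not stated, so it is used here only to describe peaks within the list. Scores and widths come from the same library and caller, and with 1 library no test across cultures was possible.

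Since width chose the peaks, their widths are a description. The median was 1140 bp, with quartiles of 1062 and 1388 bp, and the widest measured 6297 bp. Of the 240, 88 lay from 1000 to below 1100 bp, 55 from there to below 1200 bp, 47 to below 1500 bp, 24 to below 2000 bp, 18 to below 3000 bp, and 8 at 3000 bp or above. The limit of 1000 bp did not fall in a gap of the distribution. Just inside it were 3 peaks of exactly 1000 bp, on chr1:87441428-87442427 (score 27.42), chr10:74436248-74437247 (156.66) and chr11:45799289-45800288 (223.51). Just outside it were peaks of 997 bp on chr1:93200308-93201304 (171.33) and chr10:129580259-129581255 (64.81) and of 996 bp on chr5:39827495-39828490 (104.55). The 247 peaks from 900 to below 1000 bp had a median score of 95.5, and the 88 from 1000 to below 1100 bp had one of 84.4.

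**Figure D1:**
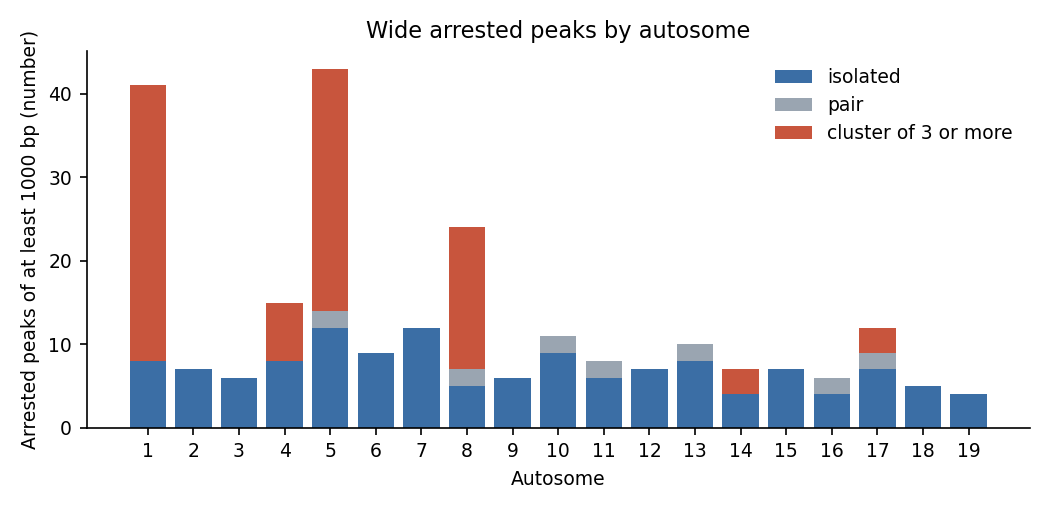
Number of arrested peaks of at least 1000 bp (y axis) on each autosome (x axis), outside the blocks on chromosomes 4 and 8. Blue marks isolated peaks, grey pairs and red clusters of 3 or more; the red parts of chromosomes 1, 5 and 8 hold 33, 29 and 17 peaks, while the isolated peaks number 4 to 12 on every autosome.

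Chromosomes 5, 1 and 8 held 43, 41 and 24 wide peaks, together 108 of 240 (45.0%), although they carried 19.5% of the arrested peaks. In relation to all arrested peaks, this was 8.43 wide peaks per 10000 on these 3 chromosomes and 2.50 per 10000 on the other 16. Chromosome 5 had the highest value, 10.6 per 10000, and chromosome 3 the lowest, 1.39, with 6 wide peaks. Of the wide peaks on chromosomes 5, 1 and 8, 29, 33 and 17 lay in clusters. Isolated wide peaks were spread more evenly, with 25 of 134 (18.7%) on chromosomes 5, 1 and 8 and between 1.25 per 10000 on chromosome 14 and 3.21 per 10000 on chromosome 7. These 3 chromosomes were picked for their number of wide peaks, most of them clustered. A more even spread of the isolated ones therefore follows in part from the grouping. The plot by autosome shows that clusters of 3 or more occurred on 6 autosomes, chromosomes 1, 4, 5, 8, 14 and 17.

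The largest cluster lay at chr5:14903264-15218639. It held 29 wide peaks in 315 kb, with widths from 1083 to 4359 bp and a median of 1602 bp. Their scores ran from 20.4 to 204 with a median of 47.4. Arrested peaks covered 22.4% of the span, and the wide ones accounted for 70.9% of that covered length. Gaps between neighbouring wide peaks had a median of 5063 bp.

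On chromosome 1, 2 clusters faced each other across a stretch of 2.0 Mb with almost no calls. The first, chr1:85040950-85343137, held 17 wide peaks with a median width of 1881 bp and a median score of 36.0. The second, chr1:87347526-87552346, held 13 with a median width of 1408 bp and a median score of 29.0. The second cluster therefore lay close to the lowest score of the list, and its highest score was 63.4. Farther along, chr1:90112186-90205766 held 3, among them a 3106 bp peak with a score of 253.63, the highest score in any of the clusters.

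Chromosome 8 held clusters beyond the block that was left out. At chr8:71947683-72099783, 13 wide peaks had a median width of 1401 bp and a median score of 53.9. At chr8:74351713-74377414, 4 wide peaks in 25.7 kb had widths from 1024 to 1378 bp and scores from 50.5 to 127. Arrested peaks covered 41.4% of that short span, the highest share among the 9 clusters.

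A cluster of 7 on chromosome 4, chr4:147002374-147124299, began 42072 bp after the last wide peak of the block that was left out, so the upper limit of that block divides a continuous run of wide peaks. Its median width was 1318 bp and its scores ran from 28.3 to 75.2. After the chromosome 8 block, by contrast, the next wide peak stood alone and 964187 bp away. The remaining clusters had 3 wide peaks each. One lay at chr14:43993295-44061930, with scores from 31.9 to 86.8. The other lay at chr17:30865619-30950138, with widths of 1018 to 1073 bp and scores from 30.1 to 58.4. It belongs to the megabase from 30 to 31 Mb on chromosome 17, which held 4 wide peaks among 369 arrested peaks.

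Some clustered peaks were separated by short stretches without a call. There were 8 neighbouring pairs with gaps of 300 bp or less, from 29 to 224 bp, and each lay in a cluster. The shortest gap parted the 2032 bp peak chr4:147013561-147015592 from the 1008 bp peak chr4:147015622-147016629. On chromosome 5, the 2046 bp peak chr5:15194712-15196757 and the 4359 bp peak chr5:15196934-15201292 stood 176 bp apart and spanned 6581 bp together. Their scores were 204.24 and 21.74, so neighbours this close could differ widely in score. On chromosome 1, a 1408 bp and a 4702 bp peak 203 bp apart spanned 6313 bp, with scores of 27.74 and 32.06.

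Proximity to wide peaks rose with peak width among the narrower peaks as well. Of the 656075 narrower arrested peaks on the same sequence, 8534 (1.30%) had a wide peak within 100 kb. By width this share was 1.15% below 300 bp, 1.55% from there to below 500 bp, 2.85% from 500 to below 700 bp and 7.72% from 700 to below 1000 bp (95% Wilson interval 6.74 to 8.83). Among the wide peaks themselves, 106 of 240 (44.2%, interval 38.0 to 50.5) had another within that distance. At 1 Mb the shares were 54.2% of wide peaks, 19.3% of peaks of 700 to below 1000 bp and 10.9% of all narrower peaks. The intervals cover counting error only and treat peaks as independent, which neighbours in a cluster are not.

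**Figure D2:**
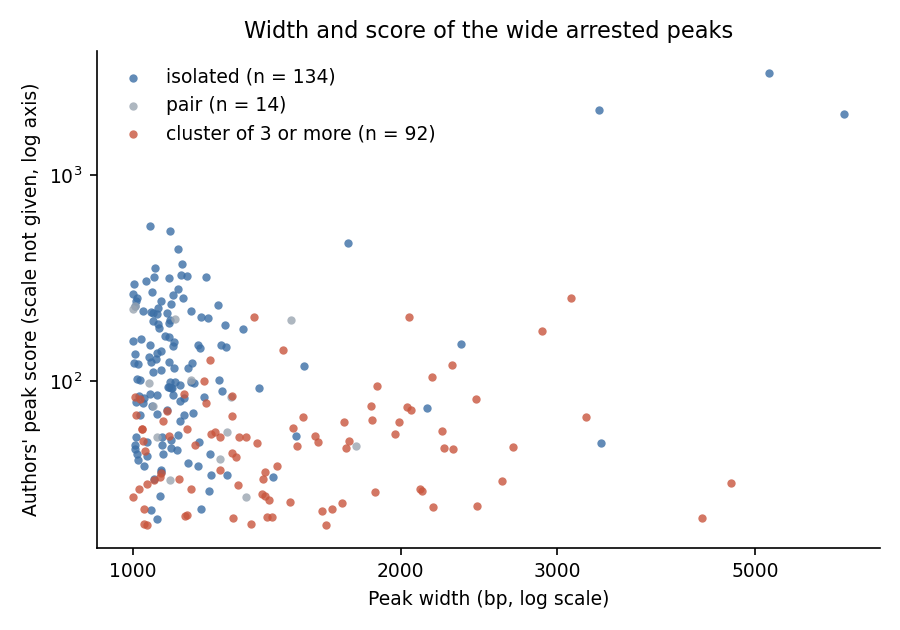
Width in bp (x axis, log scale) and the authors' score (y axis, log scale, unit not given) of the 240 wide arrested peaks, 1 point each. Isolated peaks (blue) gather below 1200 bp over a broad range of scores, clustered peaks (red) reach 4702 bp mostly at scores below 100, and 3 isolated peaks stand apart at scores of 1978.71 to 3100.

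Isolated and clustered wide peaks differed in both width and score. Of the isolated peaks, 25 of 134 (18.7%) were 1200 bp or wider, and of the clustered ones 66 of 92 (71.7%) were. Scores below 50 occurred in 24 isolated peaks (17.9%) and in 47 clustered ones (51.1%). Scores of 300 or more occurred in 15 isolated peaks (11.2%) and in 0 of the 92 clustered ones. Of all arrested peaks on the same sequence, 14.4% scored below 50 and 3.11% scored 300 or more. Across all 240, Spearman's rho between width and score was -0.21. It was 0.01 among the 134 isolated, 0.09 among the 92 clustered and -0.46 among the 14 paired peaks. Peaks of 1 list share a library and a caller, so these coefficients only describe the list.

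The difference in score between arrangements was also present at like width. From 1000 to below 1200 bp, 109 isolated peaks had a median score of 116 (quartiles 68.5 and 212) and 26 clustered ones had 40.9 (quartiles 30 and 58.6). From 1200 to below 1500 bp the medians were 97.2 for 16 isolated and 45.1 for 27 clustered peaks. At 1500 bp and above they were 151 for 9 isolated and 51.6 for 39 clustered peaks. The quartile ranges of the arrangements did not overlap in the narrowest and the widest of these classes, and in the middle class they did. In the widest class the scores of the 9 isolated peaks ran from 50.1 to 3100. The clustered peaks of all classes came from only 9 clusters, so these ranges describe the list.

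**Figure D3:**
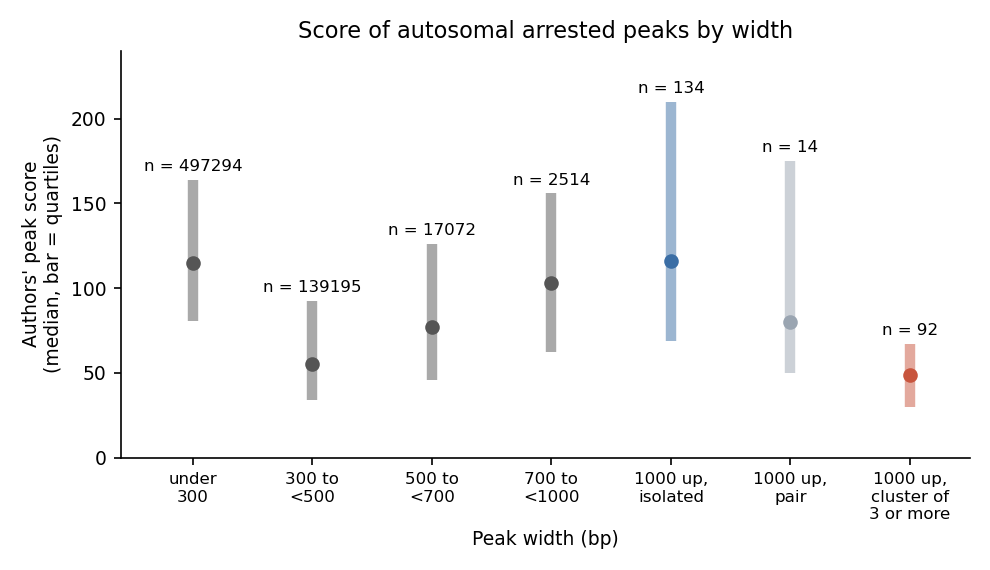
Median score (points) and quartiles (bars) of autosomal arrested peaks by width in bp (x axis), with peaks of 1000 bp and above divided by arrangement; the score is the authors' value, unit not given. The median falls from 115 below 300 bp to 55.2 in the next class, rises to 103 in the last class below 1000 bp, and among wide peaks is 116 for isolated and 48.8 for clustered ones.

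Set beside narrower peaks, isolated wide peaks had a median score similar to the highest class, and clustered ones a lower median than any class. Only the wide peaks were divided by arrangement, so the narrower classes include peaks inside the cluster spans. The median score was 115 for peaks below 300 bp, 55.2 from 300 to below 500 bp, 77.3 from 500 to below 700 bp and 103 from 700 to below 1000 bp. The isolated wide peaks had a median of 116. The clustered ones, at 48.8, were lower than each of these classes. Scores below 50 made up 5.38%, 44.6%, 29.0% and 16.7% of the narrower classes in the same order. For all 240 wide peaks the median was 75.6, and 31.2% had scores below 50.

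The widest peaks included both isolated and clustered ones, and of the 10 widest, 6 lay in clusters of 3 or more. First was the 6297 bp peak chr17:39979841-39986137 with a score of 1978.71, rank 6 of the whole list. Next came the 5182 bp peak chr1:24618199-24623380 with the shared top score of 3100, which may be a ceiling and not its own value. The 3340 bp peak chr2:22442715-22446054 had a score of 2055.88 and rank 5. Each of these 3 was isolated, with the nearest other wide peak 9029702, 6105893 and 14889845 bp away. Their nearest arrested peak of any width was 4796, 4481 and 6040 bp away, farther than the upper quartile of 2501 bp for isolated wide peaks.

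Wide peaks of similar size in the clusters had far lower scores. The 4702 bp peak chr1:87487634-87492335 scored 32.06, and the 4359 bp peak of the chromosome 5 cluster scored 21.74, rank 692825 of 699290. A 3227 bp peak at chr1:85091237-85094463 scored 66.86. Among the clustered peaks of the 10 widest, the highest scores were 253.63, for the 3106 bp peak named above, and 175.92, for the 2885 bp peak chr8:72088909-72091793. The last of the 6, chr5:15036142-15038817, was 2676 bp wide and scored 48.07. Isolation did not always go with a high score: the 3360 bp peak chr5:4051576-4054935, with no other wide peak within 10012217 bp, scored 50.07.

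By score, the 10 highest wide peaks were all isolated, and 6 of them were narrower than 1200 bp. After the 3 peaks named above came chr8:95702733-95703779 (1047 bp, score 564.48) and chr4:115308921-115310021 (1101 bp, 536.98). The only other one above 1200 bp was the 1746 bp peak chr1:135491002-135492747, with 466.96. The rest lay on chr19:34251063-34252188 (434.71), chr7:105858373-105859509 (369.12), chr11:93203619-93204679 (352.28) and chr6:42793277-42794410 (326.8). Of the 240 wide peaks, 5 were among the 1000 highest scores of the arrested list and 3 among the 100 highest. Wide peaks made up 0.0366% of the arrested peaks on the autosomal sequence examined.

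**Figure D4:**
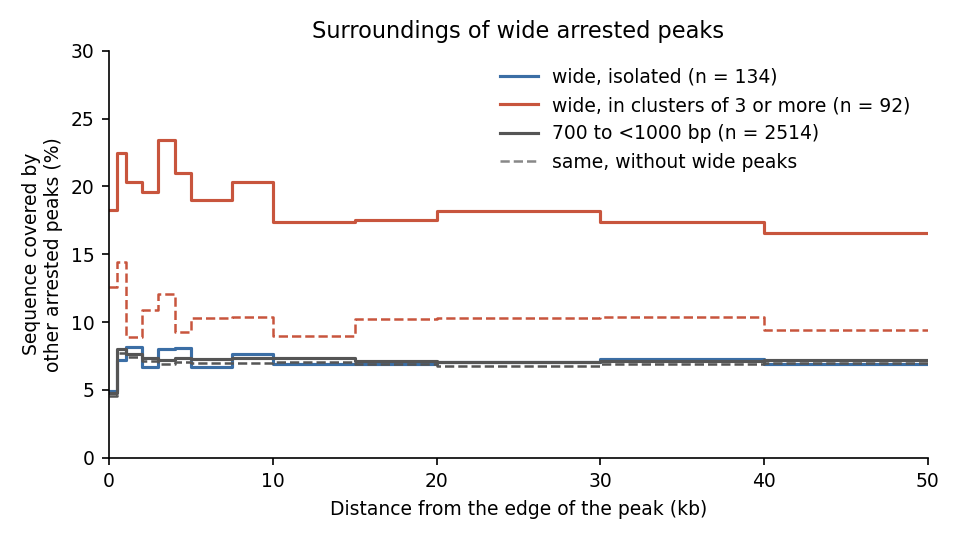
Share of sequence covered by other arrested peaks (y axis, %) at increasing distance from the edges of a peak (x axis, kb), on both sides; dashed lines count narrower peaks only, over the sequence not under a wide peak. Around isolated wide peaks (blue, the same with and without wide peaks) it lies between 6.68% and 8.17% from 0.5 kb outward, and around clustered wide peaks (red) between 16.6% and 23.4% with other wide peaks and between 8.87% and 14.4% without them.

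The surroundings of clustered and isolated wide peaks differed in part because the arrangements are defined by other wide peaks within 100 kb. Within 10 kb of either edge, arrested peaks of any width covered 7.28% of the sequence around isolated wide peaks, 7.26% around peaks of 700 to below 1000 bp and 20.3% around clustered wide peaks. Other wide peaks alone covered 10.8% of the sequence around the clustered ones and none of that around the isolated ones. With narrower peaks only, over the sequence not under a wide peak, the shares were 10.6% around clustered and 7.28% around isolated wide peaks, and 6.97% around peaks of 700 to below 1000 bp. Between 40 and 50 kb away these shares were 9.42%, 6.93% and 6.96%.

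In number, narrower peaks were fewer around clustered wide peaks. Within 10 kb, these had a median of 3 narrower arrested peaks (quartiles 2 and 5), isolated wide peaks 6 (4 and 7), and peaks of 700 to below 1000 bp 5 (4 and 7). This count leaves out wide neighbours, which isolated peaks lack by definition. With arrested peaks of any width, the medians were 5 (quartiles 3 and 7) for clustered and 6 (4 and 7) for isolated wide peaks. The nearest arrested peak of any width lay at a median of 431 bp from clustered and 1272 bp from isolated wide peaks. With narrower peaks only, the order turned, to 1625 bp (quartiles 259 and 4452) for clustered and 1272 bp (628 and 2501) for isolated ones.

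Narrower peaks inside the clusters were broad and low in score too, a comparison in which the wide peaks themselves were left out. The 9 spans amounted to 1.37 Mb, or 0.0568% of the autosomal sequence examined, and held 259 narrower arrested peaks. Their median width was 454 bp, against 166 bp over all 656075 narrower peaks. Of the 259, 119 (45.9%, interval 40.0 to 52.0) were 500 bp or wider, against 2.99% overall. Their median score was 38.3, against 97.5, and 180 of them (69.5%, interval 63.6 to 74.8) scored below 50, against 14.4%. The mix of widths differed, with 26.6% of the 259 below 300 bp, against 75.8% of all narrower peaks. Scores were not compared at like width here, although the median was 115 below 300 bp and 55.2 from there to below 500 bp. Arrested peaks of all widths numbered 256 per Mb in the spans and 272 per Mb over all the sequence examined. The spans were drawn around wide peaks of the same library, so these values describe the spans and are no independent evidence of them.

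The cluster spans differed among themselves in number of peaks. The lowest density was 146 arrested peaks per Mb, in the second chromosome 1 cluster, and the highest 661 per Mb, in the short chromosome 8 cluster. The median width of the narrower peaks ran from 230 bp in the cluster of 3 on chromosome 1 to 640 bp in the larger chromosome 8 cluster. It was above the overall 166 bp in each of the 9. Their median score ran from 28.8 to 48.9, below the overall 97.5 in each of the 9, again without adjustment for width.

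**Figure D5:**
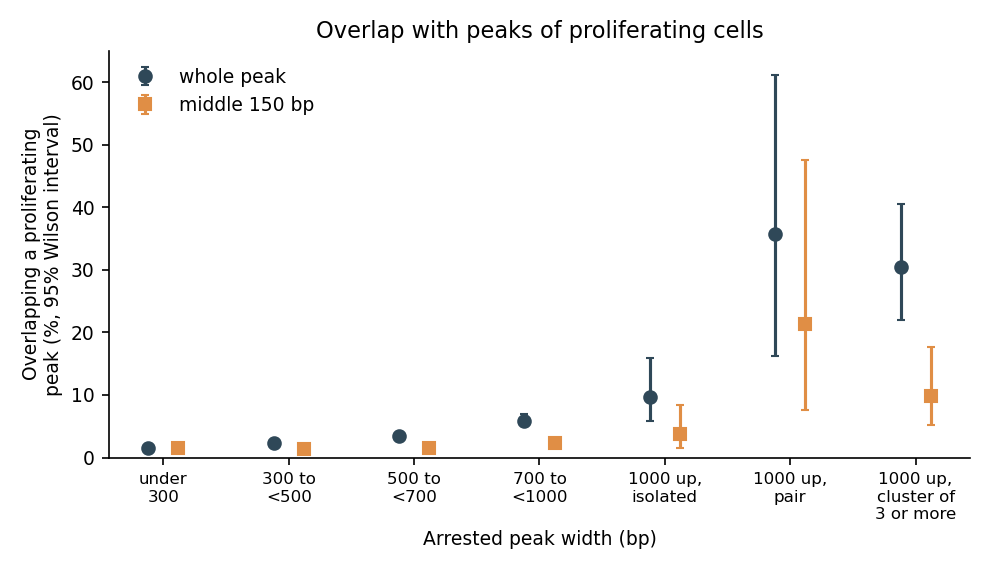
Share of arrested peaks that overlap a peak of proliferating cells (y axis, %) by width in bp and, for peaks of 1000 bp and above, by arrangement (x axis); circles use the whole peak and squares its middle 150 bp, with 95% Wilson intervals. With the whole peak the share goes from 1.58% below 300 bp to 30.4% in clustered wide peaks and 35.7% in the 14 paired ones, and with the middle 150 bp from 1.48% to 9.78% and 21.4%.

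Wide arrested peaks met peaks of proliferating cells more often than narrower ones did. Of the 240, 46 (19.2%, interval 14.7 to 24.6) shared at least 1 bp with a proliferating peak, where 1.82% of all arrested peaks on the same sequence did. The share was 5.89% (interval 5.03 to 6.88) at 700 to below 1000 bp. A wider interval has more room for an overlap, so the middle 150 bp of each peak was also used. On that measure 17 wide peaks (7.08%, interval 4.47 to 11.0) overlapped a proliferating peak, 2.27% (1.75 to 2.93) of those of 700 to below 1000 bp, and 1.46% of all narrower peaks. In bases, 3.86% of the sequence under wide peaks was also under proliferating peaks, against 0.764% under narrower peaks and 0.703% of all autosomal sequence examined. With 1 library in each growth state, no test between states was possible.

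Most of these overlaps were in clusters. Among clustered wide peaks 28 of 92 (30.4%, interval 22.0 to 40.5) overlapped a proliferating peak, among isolated ones 13 of 134 (9.70%, interval 5.76 to 15.9), and among the 14 in pairs 5. The chromosome 5 cluster had 11 of 29, the larger chromosome 8 cluster 5 of 13, and the clusters on chromosome 1 had 4 of 17, 1 of 13 and 0 of 3. At like width the share was higher for clustered than for isolated peaks in each of the 3 classes, and their intervals overlapped. These intervals treat peaks as independent, although the 92 clustered peaks lie in only 9 clusters. Their overlap therefore does not show that the shares were alike or different. From 1000 to below 1200 bp the share was 9.17% (5.06 to 16.1) for isolated and 19.2% (8.51 to 37.9) for clustered peaks. From 1200 to below 1500 bp it was 12.5% (3.50 to 36.0) and 25.9% (13.2 to 44.7), and at 1500 bp and above 11.1% (1.99 to 43.5) and 41.0% (27.1 to 56.6). With the middle 150 bp, the share was 3.73% (1.60 to 8.44) for isolated and 9.78% (5.23 to 17.6) for clustered peaks, so these intervals overlapped too. The isolated interval included the 2.27% of peaks of 700 to below 1000 bp.

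The proliferating peaks concerned were wider than usual for their list. There were 47 of them, with a median width of 286 bp, against 153 bp for all proliferating peaks on the same sequence, and a median score of 27.8 against 24.4. A wider peak meets another interval more easily, and the comparison was not adjusted for that. Of the 47, 33 lay wholly inside the wide peak, and the median share of a wide peak that was covered was 16.2%. The highest proliferating score, 95.06, belonged to a 594 bp peak that shared 422 bp with the 2173 bp arrested peak chr5:14947853-14950025. It was the only one with a score of 50 or more. The widest, 1794 bp, shared 1004 bp with the 1602 bp arrested peak chr5:15184696-15186297.

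The 10 widest arrested peaks with such a partner lay in clusters. Of all 50 wide peaks of at least 1500 bp, with or without a partner, 39 lay in clusters. The widest of them, 2676 bp at chr5:15036142-15038817, shared only 6 bp with its partner. The next were 2 neighbours on chromosome 1, of 2435 bp at chr1:85160263-85162697 and 2287 bp at chr1:85157752-85160038, which shared 527 and 656 bp with separate proliferating peaks. The others among the 10 widest were 2237 and 1751 bp on chromosome 8, from 72097547 and 71978773, and 2173, 2116 and 1855 bp on chromosome 5, from 14947853, 14994149 and 15137255. Peaks of 2104 bp on chromosome 1, from 85175308, and 2032 bp on chromosome 4, from 147013561, completed the 10.

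The cluster spans also held a large part of the broad proliferating peaks, whether or not these touched a wide arrested peak. On the same autosomal sequence there were 43 proliferating peaks of at least 500 bp, and 18 of them (41.9%) lay in the 9 spans. Of all 103566 proliferating peaks there, 130 (0.126%) did. The chromosome 5 span held 7 of the 18, and the first chromosome 1 span held 6. In number, proliferating peaks reached 95 per Mb in the spans against 43.0 per Mb over all the sequence examined, a ratio of 2.21. Among single clusters the density ran from 29.1 per Mb on chromosome 14 to 272 per Mb in the short chromosome 8 cluster. The broad proliferating calls and the broad arrested calls come from different libraries, each made from cells labelled KO.

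Along the chromosome, wide peaks were not gathered at the ends as a whole. Of the 240, 19 (7.92%, interval 5.13 to 12) lay within 5 Mb of the first or last arrested peak of their chromosome, and 7.70% of narrower peaks did. The ends differed from each other. Near the first peak, on the centromeric side of these telocentric chromosomes, there were 18 wide peaks (7.50%, interval 4.80 to 11.5) against 3.74% of narrower ones. Near the last peak there was 1 (0.417%, interval 0.0736 to 2.32) against 3.97%. The 18 lay on 12 autosomes, and none belonged to a cluster of 3 or more. Of them, 14 were isolated (10.4% of isolated peaks, interval 6.33 to 16.8) and 4 were paired. Near either end lay 15 isolated peaks (11.2%, interval 6.90 to 17.6) and 0 clustered ones. They included the 2337 bp peak chr11:3052158-3054494, which began 0.0429 Mb after the first peak of its chromosome, and a pair at chr16:3242976-3248298.

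Wide peaks outside the selection were mostly clustered as well. Measured within each set, another wide peak lay within 100 kb of 36 of 38 peaks in the chromosome 4 block (94.7%, interval 82.7 to 98.5), 16 of 17 in the chromosome 8 block (94.1%, 73.0 to 99.0) and 52 of 69 on X (75.4%, 64.0 to 84.0). The 44.2% of the autosomal wide peaks examined here lay below these intervals, but the blocks had been set apart with their wide peaks known. Their median scores were 54.9, 56.6 and 56.8, nearer to the 48.8 of the clustered autosomal peaks than to the 116 of the isolated ones. Overlap with proliferating peaks was 21.1% (interval 11.1 to 36.3), 29.4% (13.3 to 53.1) and 21.7% (13.6 to 32.8), beside the 19.2% reported above. All intervals in this paragraph treat peaks as independent, although most of these peaks lie near another. They therefore do not show that the shares were alike or different.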

How the data were processed

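ChIP-seq peaks were analysed from 1 immunoprecipitated library per growth state, arrested and proliferating, grouped by sample titles. The inputs were not analysed here. The build was mm9, and the tools named are HOMER, MACS2, Bowtie2 and bedtools, per the submitters' processing notes. Versions, settings, the use of input and the handling of duplicate or multiply matching reads are not stated in the labels or files. The authors deposited 1 list per library with 5 columns and no header, and the deposited score has no stated scale. The column layout is also that of older MACS releases, so which caller wrote the lists was not settled. Read depth is unknown, so no depth could be set beside a peak.

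Width was end minus start. Positions are mm9, with starts raised by 1 base to count from 1. Overlap meant at least 1 shared bp. Wide peaks were joined into clusters at gaps of up to 100 kb. Shares carry 95% Wilson intervals. Flank coverage of width classes above 30000 peaks used every 20th peak. Named peaks were the 10 widest, the 10 highest scores, the 10 widest with a proliferating partner, each cluster of 3 or more, and 3 peaks on each side of 1000 bp. The wide peaks, measures and rules were chosen with earlier results of these data known. Python 3.11.15, numpy 2.4.6, pandas 2.3.3, SciPy 1.17.1 and matplotlib 3.10.9 were used, and the interval code was tested on simulated data. The alternatives were other width minimums, distances, overlap rules and score limits, joined peaks, and the blocks kept in. No comparison was tested, because each state had 1 library.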

Additional observations from a re-analysis of the deposited data

How the results depend on the processing

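With 1 library per growth state, no replicate could be left out, and the planned sequence and gene comparisons were not run because no mm9 genome or annotation was used. Of 43 alternatives, 14 left the value inside its 95% interval (or within 1.5 times it for the number of peaks) and 29 moved. For shares this was the Wilson interval, and for medians an interval taken from the ranked values of the peaks. Many alternatives take in more or fewer peaks or distances, and whether that alone accounts for the moves was not tested. A width minimum of 800, 1500 or 2000 bp gave 1092, 50 and 26 wide peaks, of which 28.8%, 74.0% and 65.4% had another within 100 kb and 9.80%, 34.0% and 30.8% overlapped a proliferating peak. The median score was 105 at 800 bp and 56.3 at 1500 bp, and the median number of neighbours was 4 at 1500 and 2000 bp. Joining peaks at gaps up to 100 bp gave 424 wide peaks, and the upper 50% of the list by score gave 92. Another wide peak lay within 500 kb of 51.2% and within 1 Mb of 54.2%. Near a chromosome end the share was 5% at 2 Mb and 15.4% at 10 Mb. Shares of narrower peaks at these distances were not computed, so these values do not set wide peaks against narrower ones. The median number of neighbours was 3 within 5 kb, 27 within 50 kb, and 1 when only neighbours in the upper 50% by score were counted. Overlap with proliferating peaks was 7.08% for the middle 150 bp and 13.3% with the upper 50% of proliferating peaks; at 700 to below 1000 bp the latter was 3.50%. Chosen after seeing the data were leaving out clusters of 3 or more, leaving out chromosome 17 from 30 to 31 Mb (236 wide peaks), and keeping the blocks in for clustering (53.6%). Without clusters of 3 or more, 148 wide peaks remained, with a median score of 107 and 12.2% overlapping a proliferating peak. Of the 148, 12.8% lay within 5 Mb of a chromosome end, against 7.70% of narrower peaks.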

Other observations

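Between the first 2 clusters on chromosome 1, from 85343138 to 87347525, the arrested list held 2 peaks in 2.0 Mb and the proliferating list held 0. The 2 arrested peaks, of 418 and 496 bp, lay at the borders of the stretch, at chr1:85343327-85343744 and chr1:87344151-87344646. The other sides of these clusters had 256 and 261 arrested peaks within 1 Mb. Whether the stretch contains assembled sequence to which reads can be matched was not tested.

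Proliferating cells had 5 peaks of at least 1000 bp on the autosomal sequence examined. On chromosome 11, 3 of them followed each other, at chr11:3075157-3076818, chr11:3076887-3078664 and chr11:3078729-3080287, with widths of 1662, 1778 and 1559 bp. No arrested peak of any width overlapped these 3, although the 2337 bp arrested peak chr11:3052158-3054494 ended 20662 bp before the first. The remaining 2 lay in the chromosome 5 cluster, and 1 of them overlapped a wide arrested peak.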
